A study of Mus musculus with 8 samples.

Results

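Lrrc15, Cpn2, Prss55 and Frmpd3 were almost lost from the heart libraries of mice labelled as Tefm knockouts. These 4 protein-coding genes, of 49584 features in the deposited table and 17891 tested, were chosen by name for their large falls in this same comparison, so their own differences are given as a description without a test. The RNA was total RNA of crude mitochondria from mouse heart, read as Illumina TruSeq paired ends, with 1 library per mouse. The 4 control mice are labelled L/L with the genotype Tefm +/+, and the 4 knockout mice L/L, cre with the genotype Tefm -/-. Both groups carry the name of the loxP-flanked allele, and in knockouts cre was driven by the muscle creatine kinase promoter, a promoter of striated muscle, so the other cells of the heart keep the gene. Ages are not given in the labels.

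As background, the 4 proteins belong to different families. LRRC15 is a membrane protein built of leucine-rich repeats, short repeated units that form a curved binding surface, and is known as a marker of fibroblasts activated by TGF-beta. CPN2 carries leucine-rich repeats too and is the non-catalytic subunit that stabilises carboxypeptidase N, a plasma enzyme made in the liver that trims basic residues from the ends of kinins and complement anaphylatoxins. PRSS55 is a trypsin-like serine protease best known from the testis, where it serves sperm function. FRMPD3 holds a FERM and a PDZ domain, modules that tie membrane proteins to the cell cortex, and its relative FRMPD4 is known from synapses.

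Lrrc15 (ENSMUSG00000052316.9) lies on the minus strand of chromosome 16 from 30269302 to 30283256 in GRCm38, and Cpn2 (ENSMUSG00000023176.8) on the same strand from 30256378 to 30267499. Only 1802 bases separate the end of Lrrc15 from the start of Cpn2 in the GENCODE annotation, and each of these genes has 2 exons. Prss55 (ENSMUSG00000034623.14) lies on the minus strand of chromosome 14 from 64075438 to 64090162, with 5 exons in its longest coding transcript. Frmpd3 (ENSMUSG00000042425.18) lies on the plus strand of chromosome X from 140342263 to 140435467, with 15 exons.

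Since the 4 genes fell together, the 250 bases before their starts are shown for the 3 of them that the RefSeq promoter table of GRCm38.p6 matched by symbol. The stretches are chr16:30283255-30283504 (minus strand) for Lrrc15, chr16:30267533-30267782 (minus strand) for Cpn2 and chrX:140342013-140342262 (plus strand) for Frmpd3, printed 5′ to 3′ along the gene. Capitals mark matches, on either strand, to any of 10 motifs that are spelled out after the sequences.
Lrrc15: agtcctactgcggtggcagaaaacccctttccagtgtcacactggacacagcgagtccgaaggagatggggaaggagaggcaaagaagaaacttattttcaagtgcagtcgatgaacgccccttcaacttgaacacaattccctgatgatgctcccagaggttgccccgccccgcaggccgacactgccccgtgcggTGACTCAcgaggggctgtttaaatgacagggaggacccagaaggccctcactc
Cpn2: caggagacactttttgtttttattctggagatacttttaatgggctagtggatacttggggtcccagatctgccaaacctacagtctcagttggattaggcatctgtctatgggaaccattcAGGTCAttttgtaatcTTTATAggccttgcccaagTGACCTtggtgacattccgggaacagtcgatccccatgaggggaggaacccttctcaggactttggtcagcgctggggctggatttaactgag
Frmpd3: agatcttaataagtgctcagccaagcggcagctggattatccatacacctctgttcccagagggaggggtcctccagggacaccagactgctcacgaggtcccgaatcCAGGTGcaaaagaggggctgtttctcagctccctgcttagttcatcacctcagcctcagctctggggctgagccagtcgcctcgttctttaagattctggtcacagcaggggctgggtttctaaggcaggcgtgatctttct

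No motif was found in more than 1 of the 3 stretches. Lrrc15 held 1 match to TGANTCA, 53 to 47 bases before the start, a motif found in 6.75% of the 32851 promoters of the same length. Cpn2 held 2 matches to AGGTCA (14.0% of promoters hold at least 1) and 1 to TATAAA on the other strand (12.4%), the latter 112 to 107 bases before the start. Frmpd3 held 1 match to CACCTG on the other strand (17.2%). The stretches also differed in base composition, with 11 CG pairs and 56.4% G and C for Lrrc15, 3 pairs and 47.6% for Cpn2, and 6 pairs and 55.2% for Frmpd3, against medians of 6 pairs and 52.4% over all promoters. No matches overlapped each other. As background, TGANTCA (N is any base) is the motif of Fos and Jun proteins, AGGTCA that of nuclear receptors, TATAAA the core promoter box and CACCTG an E-box. The motifs with no match in the 3 stretches were AGATAA of GATA factors (in 9.99% of promoters), the E-box CACGTG (6.02%), TGACGT of the cyclic AMP response (6.47%), CCAAT (33.8%), the MEF2 site (1.69%) and the CArG box (1.47%). A match here is a description of letters, not a measured binding site.

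The libraries held 26268804 to 27403415 counts in controls and 21108165 to 25393933 in knockouts. Features of mtDNA made up 72.3% to 74.0% of counts in controls and 38.7% to 59.3% in knockouts, with knockout replicate 1 the highest of its group. The count of Tefm itself did not pass the threshold (log2 fold change 0.14, SE 0.11, adjusted p = 0.324 in edgeR's quasi-likelihood test; 1.13 and past it when scaled by library totals), with 106 to 144 counts in controls and 166 to 245 in knockouts, so the count over the whole gene does not check the labels. Counts were scaled with TMM factors, which centre the typical gene between groups, and are given as CPM, the counts of a gene as a rate of the scaled library size. Heart muscle markers were abundant in every library, with summed levels of 10 genes at 62889 to 66799 CPM in controls and 38866 to 50836 in knockouts. Of these 8 were lower, 1 higher and 1 not called. That is 90% called against 50% over all genes tested, of which 23.9% were lower and 26.1% higher.

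Lrrc15 was the most abundant of the 4 genes. Controls 1 to 4 held 393, 451, 291 and 381 counts, and knockouts 1 to 4 held 8, 12, 8 and 6. Every knockout library lay far below every control, and the lowest control stood 46.4-fold above the highest knockout on the CPM scale. The mean level fell from 19.9 ± 3.15 CPM to 0.268 ± 0.0715 (SD, n = 4 each), so that 1.34% of the control level was left, with a 95% counting interval of 0.928% to 1.89%. Intervals here are exact (Clopper-Pearson on the summed counts) and cover counting error alone. The log2 fold change in the fit over all genes was -6.19 (SE 0.18). In RNA of crude mitochondria, fewer cells that express a gene, less RNA per cell and less of it reaching the fraction cannot be told apart.

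Cpn2, next to Lrrc15, fell almost as far from a lower start. Controls held 78, 86, 44 and 71 counts and knockouts 1, 5, 3 and 1. No knockout library reached the lowest control, which was 16.8-fold above the highest knockout. Its mean went from 3.65 ± 0.901 CPM to 0.0753 ± 0.0524 (SD, n = 4 each), which left 2.15% (1.02% to 4.01%), and the log2 fold change was -5.46 (SE 0.35). Knockout replicate 2 held the most counts of both Lrrc15 and Cpn2 among knockouts.

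Prss55 was all but undetected in knockouts. Controls held 21, 15, 11 and 15 counts, and the 4 knockout libraries held 0, 0, 1 and 0. Control levels averaged 0.812 ± 0.211 CPM and knockout levels 0.00721 ± 0.0144 (SD, n = 4 each). The 1 count, in knockout replicate 3, gave 0.967% of the control level with an interval of 0.0241% to 5.59%. The log2 fold change of -6.00 (SE 0.58) therefore rests on that count, and without this library it was -7.30, with Prss55 at least 25.1-fold lower when 3 counts over the group are taken as the floor.

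Frmpd3 was low in controls and at the same small count in each knockout. Controls held 46, 25, 35 and 37 counts, and all 4 knockout libraries held 2. The level went from 1.88 ± 0.457 CPM to 0.0638 ± 0.00882 (SD, n = 4 each), leaving 3.35% (1.42% to 6.79%). The log2 fold change was -4.79 (SE 0.34). The counting intervals of all 4 genes overlap, and differences between the genes in what was left were not tested.

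**Figure D1:**
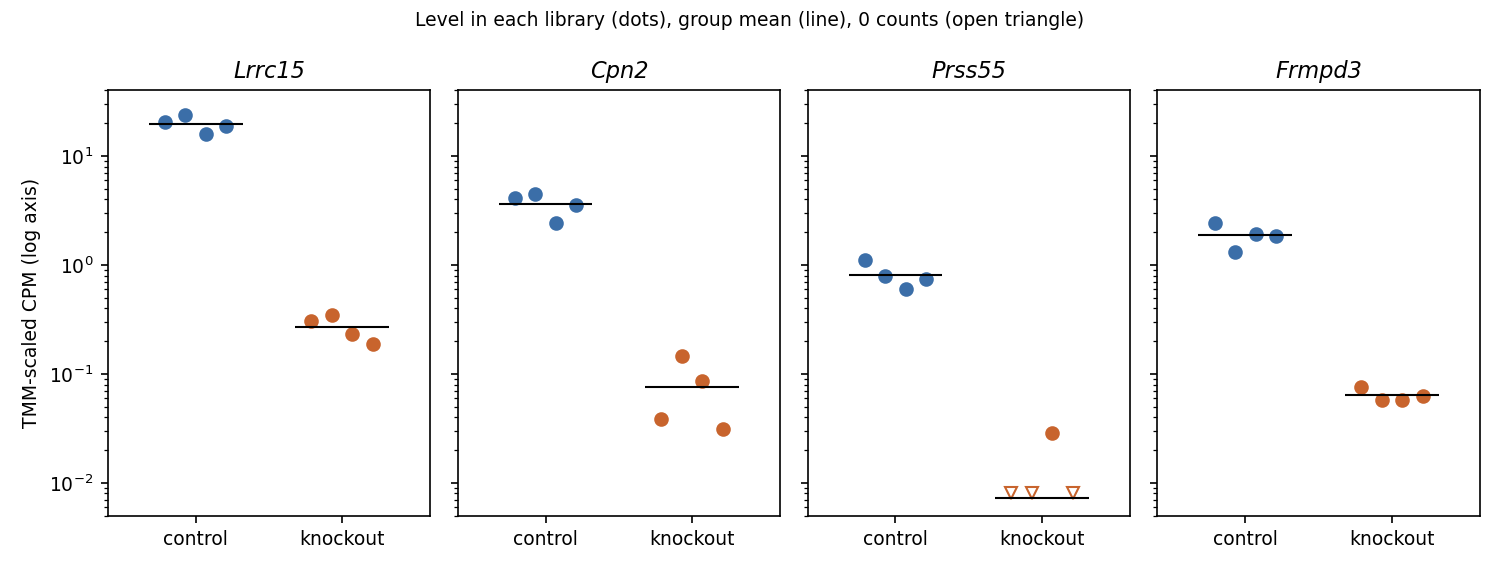
TMM-scaled CPM on a log axis in each of the 4 control (blue) and 4 knockout (orange) libraries, with the group mean as a line and libraries at 0 counts as open triangles at the bottom. All control values lie above all knockout values for each gene, from a 16.8-fold gap for Cpn2 to a 46.4-fold gap for Lrrc15.

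The control libraries spread more than counting alone gives for Lrrc15, with a coefficient of variation of 15.9% against 5.14% from counting. For Cpn2 it was 24.7% against 12.0%, for Frmpd3 24.3% against 16.7% and for Prss55 25.9% against 25.4%. The order of the controls was not shared by all genes. Control replicate 3 was the lowest for Lrrc15 (16.1 CPM), Cpn2 (2.43 CPM) and Prss55 (0.609 CPM), while Frmpd3 was lowest in control replicate 2 (1.31 CPM), which held the highest levels of Lrrc15 (23.6 CPM) and Cpn2 (4.51 CPM). These differences within controls were small beside the distance between the groups.

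Per kilobase of exon, Lrrc15 stood at 3.74 ± 0.594 CPM per kb in controls (SD, n = 4), above 75.0% of the 13128 protein-coding genes tested. Cpn2 at 0.802 ± 0.198 lay above 28.3% of them, Prss55 at 0.579 ± 0.150 above 21.3% and Frmpd3 at 0.183 ± 0.0445 above 6.63%. The control libraries of Cpn2 and Prss55, neighbours in this order, overlap on this scale, and those of the other neighbours do not. In knockouts Lrrc15 stood at 0.0505 ± 0.0135 CPM per kb (SD, n = 4), still the highest of the 4.

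The ratio of Lrrc15 to Cpn2 counts depends on no scaling. It was 5.04, 5.24, 6.61 and 5.37 in controls 1 to 4, and 5.43 over their summed counts (95% counting interval 4.78 to 6.20). In knockouts it was 8, 2.4, 2.67 and 6, and 3.4 over the sums (1.64 to 7.72). The intervals of the sums overlap, only 34 and 10 counts were left, and a change in the balance of the neighbours was not tested. Strand was not stated for the counting, and RNA running on from Lrrc15 into Cpn2 would be on the same strand, so these counts cannot separate it.

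All 4 genes passed the filter on low counts, and they could pass through the control libraries alone. Ranked by log2 fold change from the lowest of the 17891 genes tested, Lrrc15 was at place 4, Prss55 at 6, Cpn2 at 9 and Frmpd3 at 12. Only 33 genes, 0.184% of those tested, had a log2 fold change at or below -4, which is a fall of 16-fold. Over all genes 23.9% were called lower and 26.1% higher by edgeR (50% in either direction), and in 21.5% all knockout libraries lay below all controls (45.4% did not overlap in either direction). Nothing is read from the members' own calls against these shares, since the members were chosen on this contrast. In the authors' deposited table the log2 fold changes were -5.87 for Lrrc15, -4.74 for Cpn2, -4.02 for Frmpd3 and -3.84 for Prss55, smaller in size and with Prss55 in another place. Those values are from the authors' DESeq2 fit, whose settings are not stated, so their sizes are not directly comparable with the edgeR values.

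**Figure D2:**
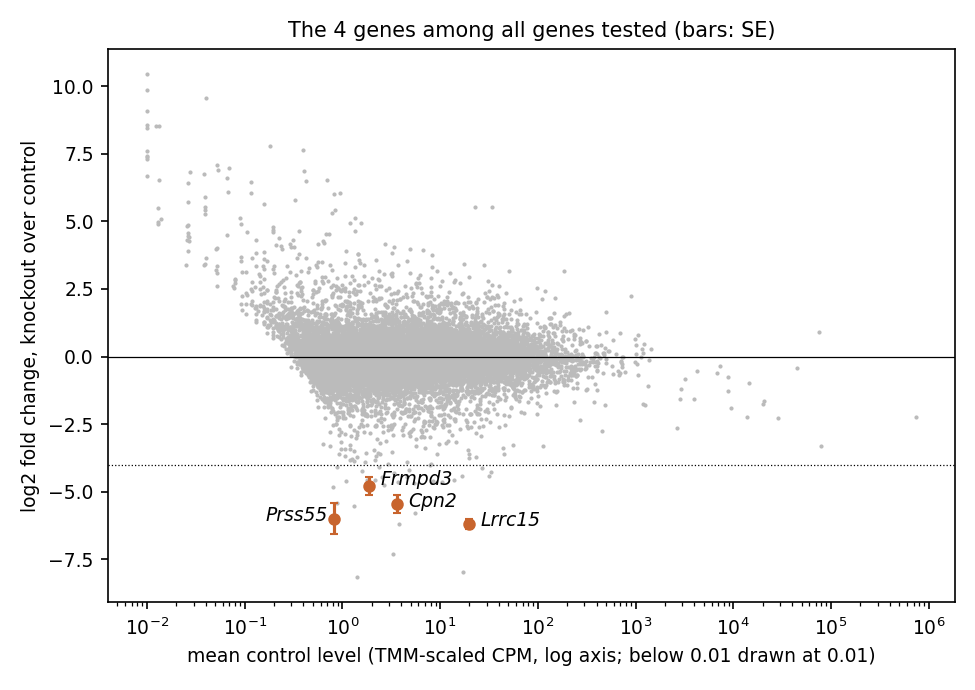
Log2 fold change (knockout over control) against the mean control level in CPM on a log axis, for all 17891 genes tested (grey) and the 4 genes (orange, bars are SE), with control levels below 0.01 drawn at 0.01. The 4 genes lie between -4.79 and -6.19, below the dotted line at -4 that only 33 genes reach, at control levels from 0.812 to 19.9 CPM.

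The large scale of these falls did not extend to most genes around them. Of 15 other protein-coding genes within 250 kb of the 4 genes, 9 had enough counts to test. Of these, 4 were higher, 3 lower and 2 not called, so that 77.8% were called against 50% over all genes, with a median log2 fold change of 0.36 against -0.01. Within 100 kb, 2 of 3 tested neighbours were higher and 0 lower in edgeR's test, and when scaled by library totals 8 of the 9 were higher and 0 lower.

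Around Lrrc15 and Cpn2 no fall of this size was seen in the nearest genes. Gp5, which encodes a platelet glycoprotein with leucine-rich repeats, lies 24.4 kb from Lrrc15 and was too low to test, with 3, 1, 0 and 3 counts in controls and 10, 1, 4 and 0 in knockouts. Its libraries overlap between groups, and its ratio had an interval of 49.3% to 372% of the control level. The next gene, Atp13a3, a transport ATPase 29.2 kb away, rose from a mean of 20.8 CPM to 38.6 ± 4.27 (SD, n = 4 each; controls 19.5 to 22.3 CPM; log2 fold change 0.90, SE 0.09, adjusted p = 1.69e-06 in edgeR). On the far side of Cpn2 the nearest tested gene was Hes1, a transcriptional repressor of the Notch pathway 189 kb away. Hes1 was called higher as well (0.52, SE 0.14, adjusted p = 0.00621 in edgeR), but its libraries overlap between groups. Control replicate 2 (10.3 CPM) lay above knockout replicate 3 (9.41 CPM). Other neighbours fell by less than Lrrc15 and Cpn2 did: Tmem44, 229 kb from Lrrc15, by 0.28 on the log2 scale (SE 0.10, adjusted p = 0.0367 in edgeR), and the non-coding 4632428C04Rik, 235 kb from Cpn2 and named after its values were seen, to 35.7% of its control level (29.5% to 43.2%, adjusted p = 4.15e-05 in edgeR).

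Beside Prss55, other genes of its cluster held few counts in controls and were nearly empty in knockouts. Prss51, a serine protease gene on the opposite strand, spans 64086234 to 64097678 and overlaps the annotated span of Prss55 by 3929 bases. Only a non-coding transcript of Prss55, which reaches 64090162, makes this overlap. The coding transcripts of Prss55 reach no further than 64085451, short of Prss51, and the annotated exons of these genes share 0 bases. Prss51 held 15, 11, 6 and 11 counts in controls and 1, 0, 0 and 2 in knockouts, with all knockout libraries below all controls. That is 4.18% of the control level (0.83% to 13.1%). Prss51 did not pass the filter on low counts; with no filter its log2 fold change was -4.27 (SE 0.67, adjusted p = 7.38e-07 in edgeR), and in the authors' deposited table it was -2.96 with an adjusted p of 1.91e-07.

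Prss52, a further serine protease gene 14.1 kb from Prss55, held 4, 5, 0 and 2 counts in controls and 0, 1, 0 and 1 in knockouts. These few counts overlap between groups and left 10.9% (1.17% to 49.9%). With no filter its log2 fold change of -2.81 passed (SE 1.02, adjusted p = 0.0303 in edgeR), but it did not in DESeq2 (adjusted p = 0.0684). Between Prss55 and Prss52 lies 4930471C04Rik, a non-coding gene named here after its values were seen, with 2, 2, 5 and 6 counts in controls and 1, 1, 0 and 0 in knockouts, which do not overlap. The non-coding Gm17116, also named after its values were seen, lies 21.0 kb from Prss55. It held 1, 2, 3 and 3 counts in controls and 0, 0, 2 and 0 in knockouts, which overlap. Since strand was not stated for the counting, unspliced RNA of Prss55 and of Prss51 in the shared span cannot be told apart.

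Beyond that cluster no tested gene moved nearly as far. Msra, a methionine sulfoxide reductase 32.5 kb from Prss55, stood at 9.96 to 11.8 CPM in controls and 8.91 to 11.3 CPM in knockouts (log2 fold change -0.13, SE 0.10, adjusted p = 0.305 in edgeR), and at 0.88 with library totals. On the other side Sox7, a transcription factor of blood vessel cells 125 kb away, fell by a smaller amount (-0.77, SE 0.12, adjusted p = 0.000127 in edgeR), and turned to 0.25 with library totals. Downstream of Frmpd3, Prps1, which encodes an enzyme that makes a precursor of nucleotides, lies 21.1 kb away and rose (0.43, SE 0.12, adjusted p = 0.0066 in edgeR). No gene on the other side of Frmpd3 within 250 kb had enough counts to test.

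**Figure D3:**
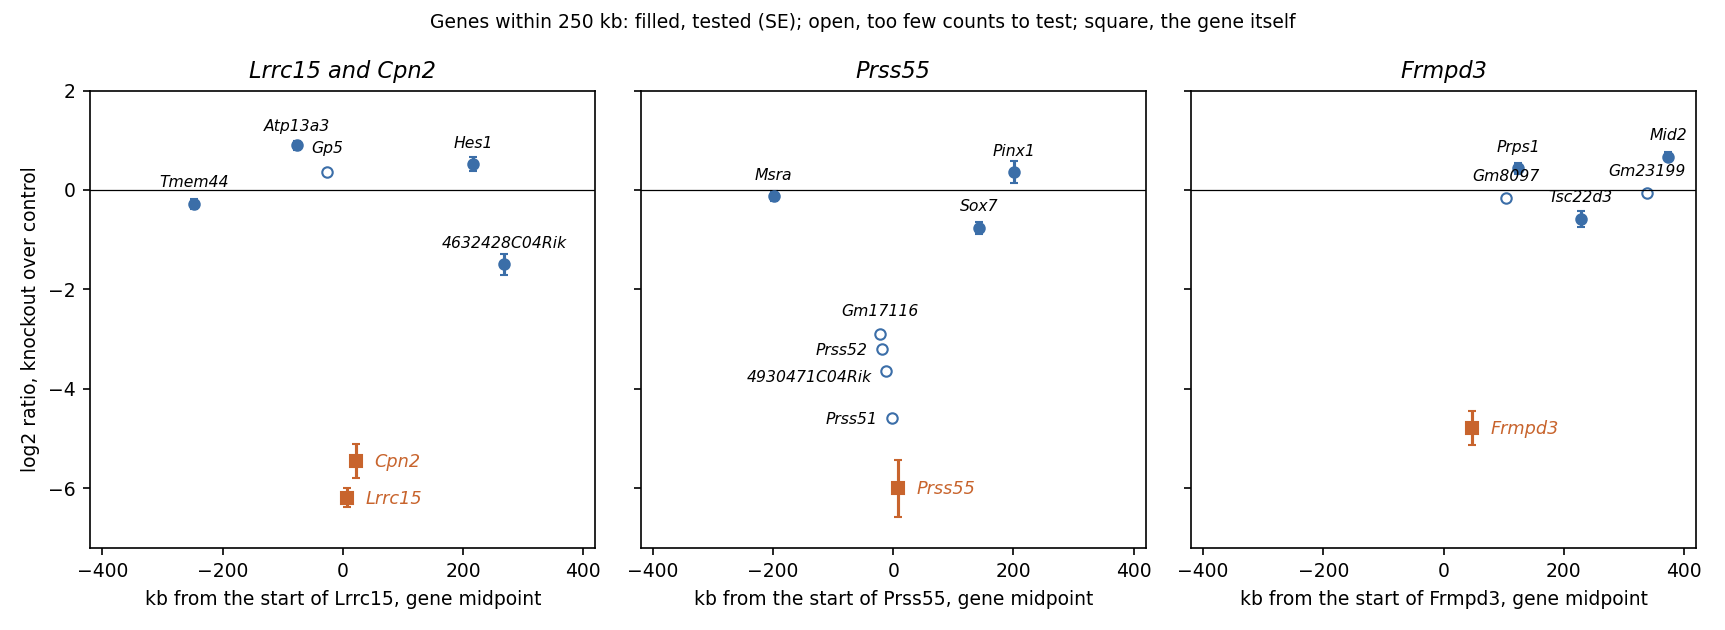
Log2 ratio of knockout over control for genes within 250 kb that held at least 10 counts, placed by the distance of the gene's midpoint from the start of Lrrc15, Prss55 or Frmpd3 in kb along the gene's strand. Filled points were tested (bars are SE), open points had too few counts, and squares are the 4 genes; Prss51, Prss52 and 4930471C04Rik lie low beside Prss55, whereas Atp13a3 and Prps1 lie above 0.

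Sequence shared with other genes was scarce. Of all stretches of 40 bases in the annotated transcripts, Lrrc15 and Cpn2 shared 0 with any other gene, Prss55 shared 4 of 1399 and Frmpd3 5 of 10213.

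Genes of related proteins were compared next. Of 31 tested genes for other leucine-rich repeat proteins, most of them at the cell surface or secreted, 16 were lower, 4 higher and 11 not called. That is 64.5% called against 50% over all genes, of which 23.9% were lower and 26.1% higher, and the median log2 fold change was -0.81 (all genes -0.01). With library totals 8 were lower and 13 higher, and without knockout replicate 3 the number higher was 2. Lingo3, a relative of the nerve receptor partner LINGO1, came closest to Lrrc15 and Cpn2, at -4.63 (SE 0.22, adjusted p = 1.23e-09 in edgeR), from 10.4 ± 1.44 to 0.408 ± 0.193 CPM (SD, n = 4 each).

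Lrrc3b (-1.96, SE 0.12), Flrt1 (-2.01, SE 0.18), which encodes an adhesion molecule, and Lrtm1 (-2.35, SE 0.25) fell by less. Lrtm1 was the most abundant of them, with 270 ± 45.7 CPM in controls against 53.1 ± 22.8 in knockouts (SD, n = 4 each). The 4 that were higher, named after their values were seen, were Lingo4, Tpbg, Lrrc8a, a subunit of volume-regulated anion channels, and Lrrc10, a heart muscle gene.

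The partner subunit of Cpn2 was all but undetected in both groups. Cpn1, the catalytic subunit of carboxypeptidase N, held 1 count in control replicate 4 and 0 in all other libraries. The kininogen genes Kng1 and Kng2 and the prekallikrein gene Klkb1, which supply the kinins that the enzyme trims, held 0 counts throughout, named here after their values were seen. Of the 12 tested genes for carboxypeptidases, kinins and anaphylatoxins 6 were higher, 1 lower and 5 not called (58.3% called, near the 50% over all genes), with a median of 0.34, and 11 were higher and 0 lower with library totals.

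The largest rise was that of Cpxm2, a carboxypeptidase relative, from 2.22 ± 0.913 to 26.5 ± 4.88 CPM (SD, n = 4 each; log2 fold change 3.58, SE 0.22, adjusted p = 1.35e-08 in edgeR). Ace, angiotensin-converting enzyme, which also cleaves kinins, rose (0.99, SE 0.11), as did Cpm (0.85, SE 0.11), a membrane carboxypeptidase with like substrates, and Cpe (0.50, SE 0.08), which processes peptide hormones. The lower gene was C5ar2, an anaphylatoxin receptor, named after its value was seen (-0.83, SE 0.23). Liver cells, where carboxypeptidase N is made, left little trace: the summed level of 10 hepatocyte markers was 0.472 to 0.775 CPM in controls and 1.94 to 4.90 in knockouts, with Serpina1a and Fgb at 0. The only gene of that list with enough counts to test was Ahsg, which was higher.

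Among serine proteases 36 of 44 listed genes, Prss51 and Prss52 among them, were too low to test, and 14 held no count. Of the 8 tested 5 were higher, 2 lower and 1 not called, with a median of 0.75, and the 87.5% called compares with 50% over all genes. With library totals 0 were lower, and without control replicate 2 or without control replicate 4 there was 1 lower among 11 tested. Prss23 (0.99, SE 0.10), Prss57 (1.79, SE 0.18) and Htra2 (1.02, SE 0.13), a protease of the space between the mitochondrial membranes, rose. Htra3 fell (-0.53, SE 0.09; 0.48 with library totals), and the other lower gene, named after its value was seen, was Klk8. Germ cell markers were scarce, with Prm2, Tnp2 and Spata16 at 0 and a summed level of 10.5 to 11.4 CPM in controls and 6.96 to 9.52 in knockouts, most of it Sycp3.

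Close relatives of Frmpd3 were hardly detected. Frmpd1 held 5 counts in controls and 3 in knockouts, Frmpd2 3 and 3, and Frmpd4 none in any library. Over the wider FERM domain genes 6 of 31 tested were higher, 8 lower and 17 not called, a share of 45.2% called against 50% over all genes, with a median of -0.05. With library totals these counts were 27 and 1, and 11 were higher among 35 with no filter. Msn, moesin, which links actin to the membrane, rose most clearly (1.57, SE 0.09, adjusted p = 5.09e-09 in edgeR), and Tln1, talin of integrin adhesions, rose by 0.61 (SE 0.07). Epb41l3 (-1.95, SE 0.16) and Ptpn3 (-0.89, SE 0.10; 0.10 with library totals) fell.

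Most tested genes of activated fibroblasts, the cells that Lrrc15 is known to mark, were higher while Lrrc15 was lower. Of 25 tested genes of that list 17 were higher, 1 lower and 7 not called (72% called against 50% over all genes, of which 26.1% were higher). The median log2 fold change was 1.17. Ccn2 of that list was not matched by name and is not counted. Under its older symbol Ctgf, named after its value was seen, it had a log2 fold change of 3.44. Lox, an enzyme that crosslinks collagen, rose from 2.65 ± 0.609 to 22.2 ± 2.08 CPM (SD, n = 4 each; 3.06, SE 0.14, adjusted p = 7.23e-10 in edgeR). Comp (4.08, SE 0.29) and Ltbp2 (3.91, SE 0.28), proteins of the extracellular matrix, and Sfrp1 (2.02, SE 0.11), a secreted Wnt inhibitor, rose too.

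The lower gene of that list was Acta2, smooth muscle actin, named after its value was seen (-1.07, SE 0.15), and 2 were lower without knockout replicate 1. General fibroblast markers summed to 461 to 487 CPM in controls and 371 to 577 in knockouts, with 4 of 10 higher and 2 lower. The 60% called is near the 50% over all genes, of which 26.1% were higher and 23.9% lower. The part of fibroblast number in the fall of Lrrc15 was not tested.

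**Figure D4:**
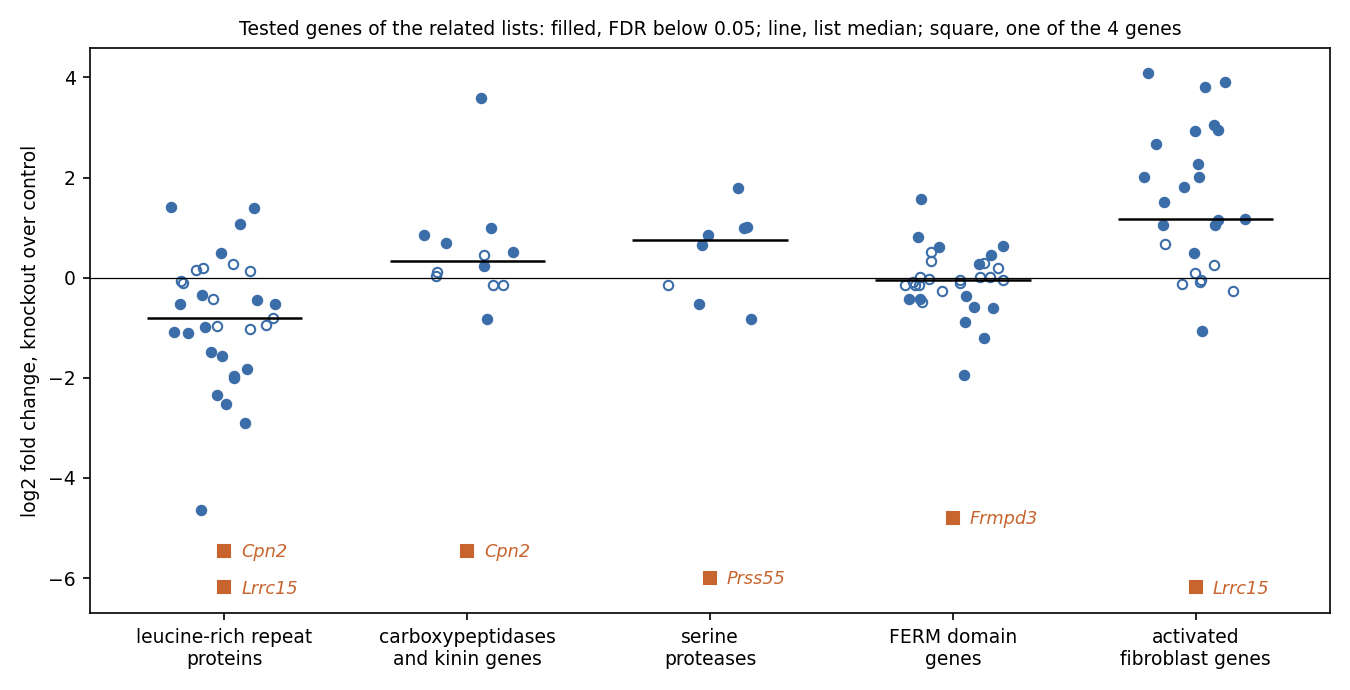
Log2 fold change (knockout over control) of the tested genes in 5 lists related to the 4 genes, filled where the edgeR FDR was below 0.05 and open elsewhere, with the list median as a line and the 4 genes as orange squares. The medians run from -0.81 for leucine-rich repeat proteins to 1.17 for activated fibroblast genes, and each of the 4 genes lies below every tested gene of its lists.

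The protein-coding genes most like each of the 4 in their course over the 8 libraries were sought by the root mean square difference of log2 CPM (prior count 2) relative to the control mean. Taken this way, the difference follows mainly the size of the fall, for which the 4 genes were chosen. A prior count pulls low genes toward 0, and its part in the choice of like genes was not tested. For each of the 4 genes, the like genes have smaller fitted falls than the gene itself. For Lrrc15 they were Aqp4, a water channel (difference 0.74), Ky (1.04) and Efnb3, an ephrin ligand (1.07). For Cpn2 they were Pla2g5, a secreted phospholipase (0.39), Clcn1, the chloride channel of skeletal muscle (0.46), and Ky again (0.46).

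Kcnv2, a silent potassium channel subunit (0.30), Scn4a, the sodium channel of skeletal muscle (0.31), and Gm4841 (0.33) were most like Prss55. F830016B08Rik (0.18), Cngb3, a subunit of cyclic nucleotide-gated channels (0.27), and Pnpla3, a lipase-like enzyme (0.31), were most like Frmpd3. By the same measure Prss55 and Frmpd3 differed by 0.39 and the neighbours Lrrc15 and Cpn2 by 0.91, but with this prior count the distance also follows the control level, so it gives no order of likeness among the 4. A list of 10 skeletal muscle markers summed to 1065 to 1091 CPM in controls and 1600 to 3811 in knockouts. Only 3 of them had enough counts to test, of which 2 were higher (Acta1 and Myh7) and 1 lower (Ckm). Over all genes 50% were called, and 3 genes are too few to set against that share. Ckm, which was lower and so did not raise the sum, is also among the heart muscle markers summed above. This sum is therefore not particular to skeletal muscle, and which gene raised it was not tested. Myh4, a myosin of fast skeletal fibres, was at 0. The part of skeletal muscle in these profiles was not tested.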

How the data were processed

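Total RNA of heart mitochondria from 4 control and 4 knockout mice was counted per gene. The deposited values are raw counts in whole numbers. DESeq2 1.14.1, R 3.3.2, featureCounts, SAMtools 1.3.1, bedtools and Bowtie2 are listed, with the build mm10 and no step for any of them, per the submitters' processing notes. Each gene of the authors' deposited table has a signal averaged over libraries, a log2 fold change, its log2 standard error, a statistic (unit score) and p-values.

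Here counts were tested with edgeR 4.0.16 in R 4.3.3 (quasi-likelihood F test, TMM factors, filterByExpr with a minimum count of 10, two-sided, Benjamini-Hochberg at 0.05 over 17891 genes). The biological coefficient of variation was 11.3%. Each standard error was taken as log2 fold change divided by the square root of the F statistic. The test was checked on simulated counts, drawn for both groups from the control proportions with chosen genes changed. That check does not cover the change in mtDNA share. Alternatives were RLE factors, library totals, DESeq2 1.42.0, the replicate number as a block, no filter, nuclear genes alone, and leaving out each library. Positions and exon lengths are from GENCODE M21 of GRCm38, which held 49289 of the 49584 identifiers, promoters from RefSeq.

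The 4 genes were chosen, and the lists written, with earlier results of these data known. Named are Tefm, the 4 genes, the nearest tested neighbours, the closest relatives, up to 4 called genes per list by smallest p, and 3 genes of most alike course per gene. Figures were drawn with matplotlib 3.10.9.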

Additional observations from a re-analysis of the deposited data

Results flagged for a closer look

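Of 93 groups of 4 libraries examined over the named genes, 4 held a library whose gap to the nearest other library was above Dixon's 95% critical share of the group's range, and chance flags about 1 in 20 groups. Prss55 stood at 0.0289 CPM in knockout replicate 3 and at 0 in the other knockouts, and Cpn1 at 0.0498 CPM in control replicate 4 and at 0 in the other controls, each from 1 count. Frmpd1 was at 0.105 CPM in control replicate 1, against 0.0498 to 0.0553 in the other controls. Efnb3 was at 3.21 CPM in knockout replicate 1, against 0.756 to 1.13 in the other knockouts.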

How the results depend on the processing

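Lrrc15, Cpn2, Prss55 and Frmpd3 stayed lower and past the threshold in all 14 alternatives, at log2 fold changes of -6.35 to -5.22, -5.95 to -4.50, -7.30 to -5.18 and -4.94 to -3.84. The smallest falls all came with library totals, which moved the median of all genes from -0.01 to 0.97 and gave 480 genes lower and 14066 higher in place of 4274 and 4669. With library totals, the lower and higher counts were 0 and 8 for neighbours, 8 and 13 for leucine-rich repeat proteins, 0 and 11 for carboxypeptidase and kinin genes, 1 and 27 for FERM domain genes, 0 lower for serine proteases and 0 lower for activated fibroblast genes. Htra3 (0.48), Ptpn3 (0.10), Sox7 (0.25) and Msra (0.88) changed sign and Tefm passed the threshold (1.13); by construction this scaling counts a smaller mtDNA share as a rise of nuclear RNA. Within 100 kb, 0 neighbours were lower and 2 higher, as fewer genes were tested, and with no filter 11 FERM domain genes were higher, as more were. Leaving out 1 library gave 2 to 5 higher leucine-rich repeat genes, 1 to 3 lower serine proteases and 1 to 2 lower fibroblast genes; the cause was not tested. Same-numbered libraries did not deviate together (correlations of -0.01 to 0.05), which cannot show whether the numbers pair mice. The replicate block gave 4253 lower and 4580 higher genes. The counts of Prss55, Prss51, Prss52 and Frmpd3 limit what their values can show.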
